A study of Mus musculus with 2 samples.

Results

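The immediate early transcription factors measured here are 10 genes chosen by symbol: Fos, Fosb, Jun, Junb, Jund, Egr1, Ier2, Atf3, Nr4a1 and Klf6. Of these, 9 had a probe in the platform's annotation, 1 probe each, among 16390 named genes, and probes for Jund were not analysed here. They were followed through 3 populations sorted from the small intestinal epithelium of mice, on 2 arrays that each read a pair of populations in Cy3 and Cy5. All cells came from mice that carried Atoh1-CrePGR, a Cre recombinase under Atoh1 that RU486 switches on, together with Lgr5-EGFP-IRES-CreERT2 and Rosa26-LSL-tdTomato. RU486 was injected on 5 consecutive days, and cells were sorted 20 days after recombination from a pool of 4 mice, so that each fraction is a single biological sample. The labels give no age. Cells with both EGFP and tdTomato (double positive) were taken as Lgr5 cells with an Atoh1-expressing ancestor, cells with tdTomato and no EGFP (tdTomato only) as cells of the same ancestry without Lgr5, and cells with EGFP and no tdTomato (EGFP only) as Lgr5 cells of other origin. The first array carried double-positive RNA in Cy3 and the second tdTomato-only RNA in Cy3, each against EGFP-only RNA in Cy5. Both tdTomato-positive populations were taken to depend on Atoh1-driven Cre, and any part of the CreERT2 of the Lgr5 construct was not tested. An Atoh1 history that left no tdTomato would be counted as EGFP only.

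Immediate early genes are transcribed within minutes of a stimulus, without new protein synthesis, because kinase cascades act on transcription factors such as the serum response factor SRF and CREB that already sit at their promoters. Most of them encode transcription factors, which then switch on a later wave of genes. In the crypt, growth factor signalling and Jun activity are linked to proliferation of stem and progenitor cells, and the same genes are known to be induced when tissue is enzymatically dissociated and sorted. All 3 populations were sorted, and intact tissue was not analysed here, so the part of dissociation in the levels below was not tested.

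The promoters of 5 members are shown, taken from both sides of the comparison between the 2 tdTomato-positive populations described below. Fos, Junb and Klf6 were higher in tdTomato-only cells than in double-positive cells, and Jun and Nr4a1 were lower. Those of Fosb and Atf3, both higher, were searched but are not printed, and those of Egr1 and Ier2 were not analysed here. Each sequence is the 250 bases before the gene's start in RefSeq (GRCm38.p6), on the gene's own strand from 5′ to 3′. Capitals mark matches on either strand to TGACG, the core of the CREB site; to TGACNTCA, of which the full CREB site TGACGTCA and the Jun-dimer site TGACATCA are forms; and to GCGNGGGCG, the EGR site.
Fos (chr12:85473640-85473889, plus strand): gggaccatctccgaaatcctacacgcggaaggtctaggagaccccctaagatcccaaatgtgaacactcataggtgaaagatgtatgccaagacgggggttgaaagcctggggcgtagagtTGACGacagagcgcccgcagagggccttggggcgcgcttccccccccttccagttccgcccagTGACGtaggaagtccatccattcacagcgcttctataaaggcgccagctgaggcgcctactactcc
Junb (chr8:84978749-84978998, minus strand): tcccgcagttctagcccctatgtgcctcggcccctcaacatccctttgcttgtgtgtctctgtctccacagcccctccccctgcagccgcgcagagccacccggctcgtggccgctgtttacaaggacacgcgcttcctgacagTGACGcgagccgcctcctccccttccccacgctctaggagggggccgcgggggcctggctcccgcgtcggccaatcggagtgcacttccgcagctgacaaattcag
Klf6 (chr13:5861239-5861488, plus strand): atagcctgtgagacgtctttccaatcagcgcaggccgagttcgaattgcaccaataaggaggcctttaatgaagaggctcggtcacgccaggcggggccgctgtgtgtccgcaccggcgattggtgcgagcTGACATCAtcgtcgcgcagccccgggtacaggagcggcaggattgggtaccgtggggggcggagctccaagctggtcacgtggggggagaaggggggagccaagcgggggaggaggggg
Jun (chr4:95052223-95052472, minus strand): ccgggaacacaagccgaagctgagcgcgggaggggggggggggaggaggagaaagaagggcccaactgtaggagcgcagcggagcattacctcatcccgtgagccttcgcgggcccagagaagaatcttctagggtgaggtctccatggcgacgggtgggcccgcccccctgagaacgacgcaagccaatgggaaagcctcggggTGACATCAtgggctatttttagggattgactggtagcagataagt
Nr4a1 (chr15:101266596-101266845, plus strand): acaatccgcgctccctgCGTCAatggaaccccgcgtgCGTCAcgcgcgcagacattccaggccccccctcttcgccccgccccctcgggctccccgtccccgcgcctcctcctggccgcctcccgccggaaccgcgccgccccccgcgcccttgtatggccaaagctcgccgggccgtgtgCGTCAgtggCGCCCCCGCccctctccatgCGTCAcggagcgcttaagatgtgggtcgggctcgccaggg
Fos held TGACG at 2 places, Junb at 1 and Nr4a1 at 4, and 17.8% of 32851 promoter windows of the same length held at least 1. Fosb and Atf3 also held it, at 1 place each. Jun and Klf6 each held a single TGACATCA, whose first base lies at position −45 in Jun and −119 in Klf6, counted back from the start; 7.49% of all windows held TGACNTCA, a motif added after these promoters had been read. A GCGNGGGCG match, which is in 4.70% of windows, was found in Nr4a1 and, among the members not printed, in Fosb. None of the 7 members with a promoter searched held a CArG box (the SRF site, in 1.47% of windows), TGACGTCA (1.55%) or the AP-1 site TGANTCA (6.75%) in these bases. The TGACG matches do not overlap TGACNTCA in the 5 printed promoters. Among the 7 searched, none of the motifs separates the genes higher in tdTomato-only cells from those lower.

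Each comparison with EGFP-only cells rests on 1 array, and the comparison between both tdTomato-positive populations on the difference of the 2 arrays, so no ratio has a replicate error and none was tested. Counts below are of genes 2-fold apart or more, a distance of 1 from 0 on the log2 scale. Shares of all genes, and ranks among them, were not matched for spot brightness. The only quantity measured on both arrays was the EGFP-only channel, whose normalized levels differed between arrays with an SD of 0.083 (log2, 15334 probes). For the 9 members that difference ran from −0.08 (Egr1) to 0.23 (Fos), and since the labels do not say whether both arrays carried the same extract or labelling reaction, the steps that this spread covers are not known; it includes no spread between mice. Across all genes, 93.8% of those at least 2-fold apart were higher in double-positive than in EGFP-only cells, and 83.8% were higher in tdTomato-only than in EGFP-only cells. Quantile normalization gave 82.8% and 69.7%, and the authors' deposited ratios 74.8% and 59.4%. With median centring in place of loess the larger number of calls was downward, with 364 genes higher and 740 lower in double-positive cells and 407 higher and 850 lower in tdTomato-only cells, and the median of all genes lay at −0.21 in both comparisons. Neither array swapped the dyes, with Cy5 always on EGFP-only RNA, so a dye effect of a single probe and a difference from EGFP-only cells cannot be told apart.

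Marker genes of the sorted populations also differed. Of 5 stem cell markers, 4 lay below 0 in double-positive against EGFP-only cells (median −0.49, lowest Olfm4 at −1.56) and Lgr5 alone above it, at 0.26. In tdTomato-only cells all 4 measured were below 0 (median −1.08), with Lgr5 at −0.89. Of measured Paneth cell markers, 4 of 4 were 2-fold higher or more in both double-positive and tdTomato-only cells than in EGFP-only cells. The same held for 3 of 5 goblet cell and 3 of 4 enterocyte markers in double-positive cells, and for 4 of 5 and 4 of 4 in tdTomato-only cells. Enteroendocrine markers went the other way, with 5 of 5 below 0 in both populations and 4 of 5 past 2-fold downward in double-positive cells (median −1.18; −0.51 in tdTomato-only cells). Of 8 markers of T cells and intraepithelial lymphocytes, 7 were above background in all 4 channels and Cd3e in none. Their summed spot intensity above the blank spots was 12386 in double-positive and 5376 in tdTomato-only cells (Cy3). In EGFP-only cells (Cy5) it was 1555 and 1489 on the first and second array. These sums, and those below, were not normalized and set one dye against the other. After loess all 7 lay above 0 against EGFP-only cells, with medians of 2.77 in double-positive and 1.61 in tdTomato-only cells. Of 6 myeloid markers with a probe, all were above background in both tdTomato-positive populations, with sums of 1381 and 1059, and all but C1qa in EGFP-only cells, with sums of 349 and 343. The myeloid markers did not move together. Of 5 measured, 3 lay above 0 and 2 below in each comparison with EGFP-only cells, with medians of 1.20 in double-positive and 0.54 in tdTomato-only cells. Immediate early genes are also expressed in lymphocytes and myeloid cells, and the part of these cells in the ratios below was not tested. In bulk RNA, more cells that express a gene and more RNA per cell cannot be told apart.

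All 9 probes were above background in all 4 channels and none was saturated. The spot medians before any correction are given first, since they show what normalization then changed.

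**Figure D1:**
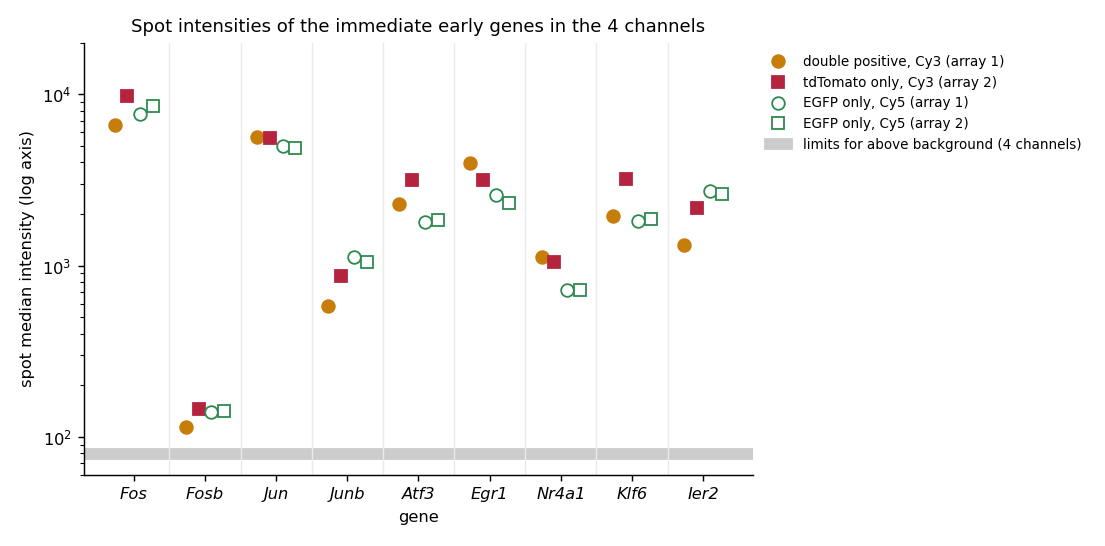
Spot median intensity (log axis) of the 9 immediate early genes in double-positive cells (Cy3), tdTomato-only cells (Cy3) and EGFP-only cells (Cy5, both arrays), with the limits for above background as a grey band. Junb and Ier2 had lower spots in both tdTomato-positive populations than in EGFP-only cells, whereas Jun, Atf3, Egr1, Nr4a1 and Klf6 had higher ones.

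Fos and Fosb encode the FOS partner of the AP-1 dimer, which binds DNA only together with a JUN or related partner. Fos had a spot intensity of 6652 in double-positive cells, against 7635 in EGFP-only cells on the same array. On the second array it had 9781 in tdTomato-only cells, against 8509 in EGFP-only cells. Before normalization Fos was thus below the EGFP-only spot in double-positive cells and above it in tdTomato-only cells, and its normalized EGFP-only levels differed between arrays more than those of any other member. After loess the log2 ratio of Fos was 0.80 in double-positive and 1.09 in tdTomato-only cells. Fosb was dim, with spots of 115 in double-positive and 146 in tdTomato-only cells, against 139 and 141 in EGFP-only cells, where the limits lay between 74.1 and 85.4. Its log2 ratios were −0.20 in double-positive and 0.16 in tdTomato-only cells, the smallest of the 9 in either comparison. Fos and Fosb therefore differed in direction in double-positive cells in this setting, although median centring without loess put Fos at −0.14 there, and put Fosb at −0.06 in tdTomato-only cells.

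Jun and Junb encode JUN partners of AP-1; JUN is a strong activator that favours proliferation, and JUNB often restrains it. Jun had spots of 5635 in double-positive and 5553 in tdTomato-only cells, against 4960 and 4876 in EGFP-only cells. Both tdTomato-positive spots were above both EGFP-only spots. Its log2 ratios were 1.13 in double-positive and 0.98 in tdTomato-only cells (2.19-fold and 1.98-fold higher). Junb went the other way in the spots, with 577 in double-positive and 867 in tdTomato-only cells, against 1117 and 1050 in EGFP-only cells. Its log2 ratio was −0.38 in double-positive cells (1.30-fold lower). In tdTomato-only cells it was 0.24, a direction that median centring without loess (−0.29) and the authors' deposited ratio (−0.01) turned.

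Atf3 encodes a stress-induced factor of the ATF/CREB family that pairs with JUN proteins and mostly represses. Its spots were 2291 in double-positive and 3149 in tdTomato-only cells, against 1790 and 1837 in EGFP-only cells. It was higher in both tdTomato-positive populations, with log2 ratios of 1.12 in double-positive cells (2.17-fold) and 1.45 in tdTomato-only cells (2.74-fold). It stayed above 0 in the 6 alternatives of each comparison that could change a gene with 1 bright probe, with a lowest value of 0.41 in double-positive and 0.79 in tdTomato-only cells.

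Egr1 encodes a zinc finger protein that binds GC-rich promoters, and its induction by growth factors runs through SRF. Its spots were 3981 in double-positive and 3178 in tdTomato-only cells, against 2564 and 2326 in EGFP-only cells. It had the highest ratio of the 9 in double-positive cells, 1.49 on the log2 scale (2.80-fold), above that of 97.2% of 11774 genes, and 1.14 in tdTomato-only cells (2.21-fold). Nr4a1 encodes NUR77, an orphan nuclear receptor that antigen receptor signals induce in lymphocytes. Its spots were 1121 in double-positive and 1044 in tdTomato-only cells, against 719 and 716 in EGFP-only cells, and its log2 ratios were 1.27 (2.41-fold) in double-positive and 1.07 (2.10-fold) in tdTomato-only cells. Both genes stayed above 0 in the same 6 alternatives, with Egr1 no lower than 0.70 and 0.46 and Nr4a1 no lower than 0.70 and 0.55 in double-positive and tdTomato-only cells.

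Klf6 encodes a zinc finger factor of the Krüppel-like family with growth-restraining activity. It had 1939 in double-positive and 3193 in tdTomato-only cells, against 1828 and 1857 in EGFP-only cells. The double-positive spot was close to the EGFP-only spots and the tdTomato-only spot far above them. The log2 ratios were 0.83 in double-positive cells (1.78-fold) and 1.46 in tdTomato-only cells (2.75-fold), the highest of the 9 in tdTomato-only cells and above that of 96.8% of 11381 genes. Ier2 encodes a small nuclear protein induced by growth factors. It had 1322 in double-positive and 2179 in tdTomato-only cells, against 2720 and 2633 in EGFP-only cells, so that both tdTomato-positive spots were below the EGFP-only spots. Its log2 ratio was −0.30 in double-positive cells (1.24-fold lower), below 0 in those 6 alternatives, and 0.39 in tdTomato-only cells, which median centring turned to −0.27.

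In the comparison of double-positive with EGFP-only cells, 4 of 9 members (Egr1, Nr4a1, Jun and Atf3) were past 2-fold upward and 0 downward, whereas 5.10% of all 11774 genes were past 2-fold upward and 0.340% downward. Above 0 lay 6 of the 9, against 48.9% of all genes, and Fosb, Ier2 and Junb lay below. The median log2 ratio was 0.83, against −0.01 for all genes. In the authors' deposited ratios it was 0.57, against −0.03 for all genes. There 2 of the 9 were 2-fold higher, as were 1244 of all 11774 genes. With median centring it was 0.14, against −0.21 for all genes. Then 0 of the 9 were 2-fold higher, and 364 of all 11774 genes were. In tdTomato-only against EGFP-only cells, 5 of 9 members (Klf6, Atf3, Egr1, Fos and Nr4a1) were past 2-fold upward and 0 downward, against 6.15% and 1.19% of 11381 genes. All 9 lay above 0, against 48.2% of all genes, with a median of 1.07 against −0.01 for all genes. With median centring 0 members were past 2-fold, while 407 of all 11381 genes were past it upward. Above 0 lay 6 members, against 30.0% of all genes, and the median was 0.21, against −0.21. In the deposited ratios 2 members were past 2-fold upward, as were 1209 of all 11381 genes. Above 0 lay 8 members, against 45.5% of all genes, and the median was 0.50, against −0.08. Both comparisons have EGFP-only cells as denominator, in Cy5, with the limit on their extract given above. The shares of all genes also set members against mostly dimmer probes. The median spot of all probes was 104 in double-positive cells, and members other than Fosb had spots of 577 or more. With a normexp offset of 0, all genes 2-fold higher rose from 601 to 1044 in double-positive and from 700 to 1132 in tdTomato-only cells. Members 2-fold higher stayed at 4 and went from 5 to 6. Genes of like brightness were not compared.

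**Figure D2:**
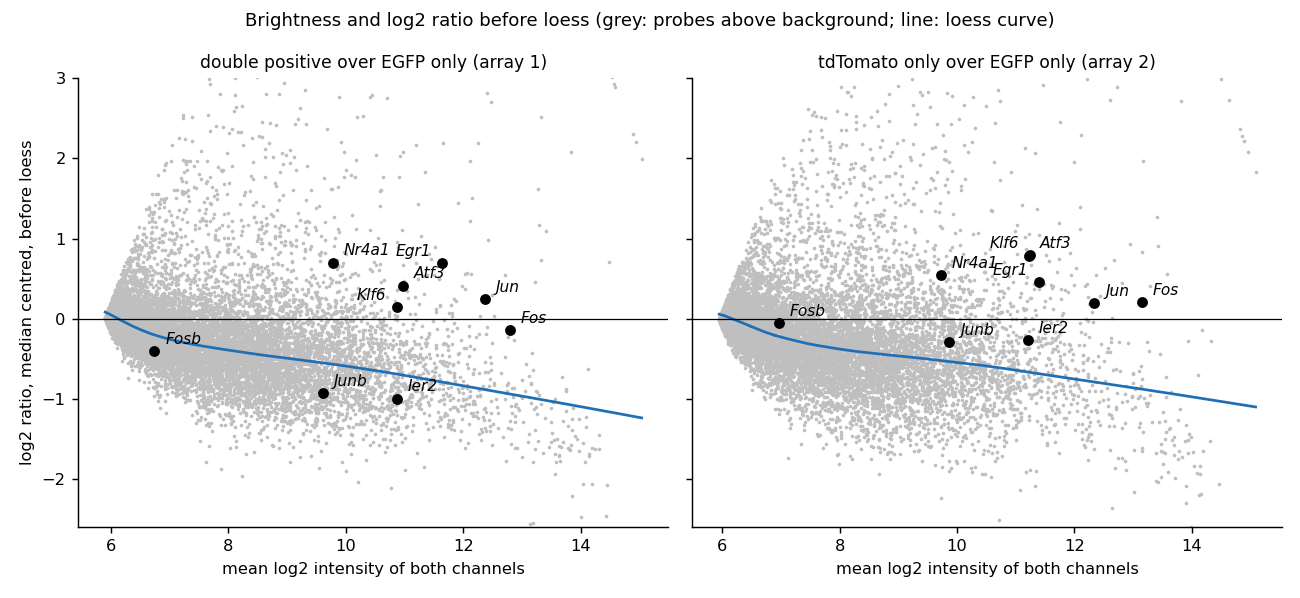
Log2 ratio before loess, after centring on each array's median, against the mean log2 intensity of both channels, for probes above background (grey, a few beyond the axis not shown) and the 9 immediate early genes (black) on each array; the line is the loess curve subtracted in the main setting. The curve falls with brightness, and 6 of the 9 genes on the first array and all 9 on the second lay above it.

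How far the loess step moved each gene depended on its brightness. On the first array it added from 0.20 (Fosb, the dimmest) to 0.94 (Fos, the brightest) to the median-centred log2 ratio, and on the second from 0.22 to 0.88. Jun gained 0.89 and 0.79, and Nr4a1 0.57 and 0.52. The sizes of the ratios against EGFP-only cells thus rest on this curve, as the plot of ratio against brightness shows, and its shifts were alike on both arrays.

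The comparison between the 2 tdTomato-positive populations sets Atoh1-derived cells without EGFP against those with it. Of the 9 members, 6 were higher in tdTomato-only than in double-positive cells and 3 were lower. Ier2 had a log2 difference of 0.70 (1.62-fold), Klf6 0.63 (1.55-fold), Junb 0.63 (1.54-fold), Fosb 0.37, Atf3 0.33 and Fos 0.29. Egr1 (−0.34), Nr4a1 (−0.20) and Jun (−0.14) were lower in tdTomato-only cells. None of the 9 was 2-fold apart in either direction, and of all 11311 genes 0.813% were past 2-fold upward and 0.274% downward (74.8% of these calls upward, against 54.5% in the deposited ratios and 60.1% for Cy3 against Cy3). The share of all genes above 0 was 45.7%, and the median of the members was 0.33 against −0.02 for all genes.

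**Figure D3:**
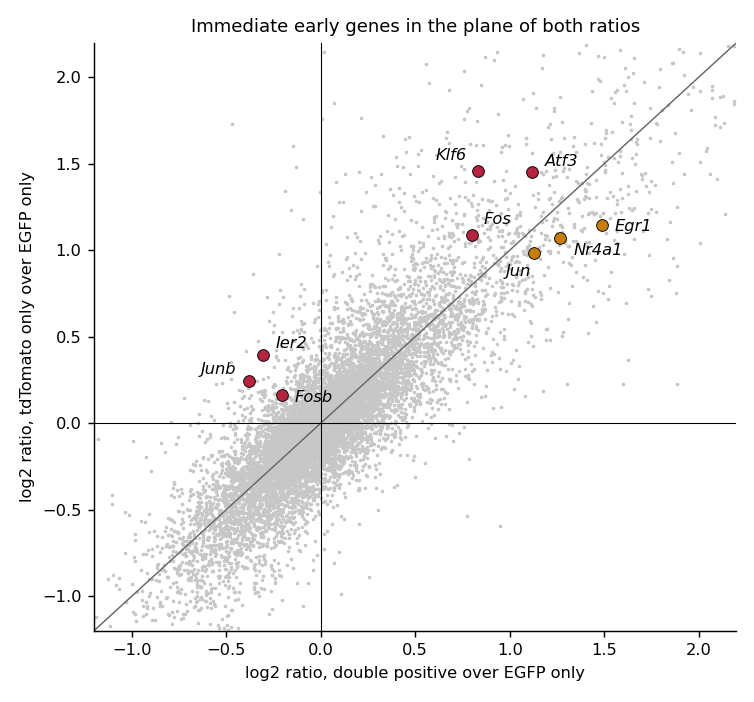
Log2 ratio in tdTomato-only cells against that in double-positive cells, both over EGFP-only cells, for genes above background in all 4 channels (grey, those beyond the axes not shown) and the immediate early genes (red, higher in tdTomato-only than in double-positive cells; orange, lower). Ier2, Klf6 and Junb lay farthest above the line of equal ratios, and Egr1, Nr4a1 and Jun lay below it.

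These directions held under the 6 alternatives that could change a member and for Cy3 against Cy3 without the EGFP-only channel, an alternative added after the data had been seen. Ier2 ranged from 0.62 to 0.75, Klf6 from 0.53 to 0.67 and Junb from 0.55 to 0.67. Each of the 3 lay above at least 97.7% of genes. In the EGFP-only channel of the same arrays Ier2 differed by −0.05, Klf6 by 0.03 and Junb by −0.07. Egr1 ranged from −0.44 to −0.24, and its EGFP-only level differed by −0.08 between arrays. For Fos, the EGFP-only level differed by 0.23 between arrays, close to its log2 difference of 0.29; without the EGFP-only channel the difference was 0.45. Jun ranged from −0.18 to −0.05, and values nearest 0 were within the SD of 0.083. Fosb ranged from 0.31 without background correction to 0.73 with the blank mean subtracted and 0.77 for Cy3 against Cy3.

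**Figure D4:**
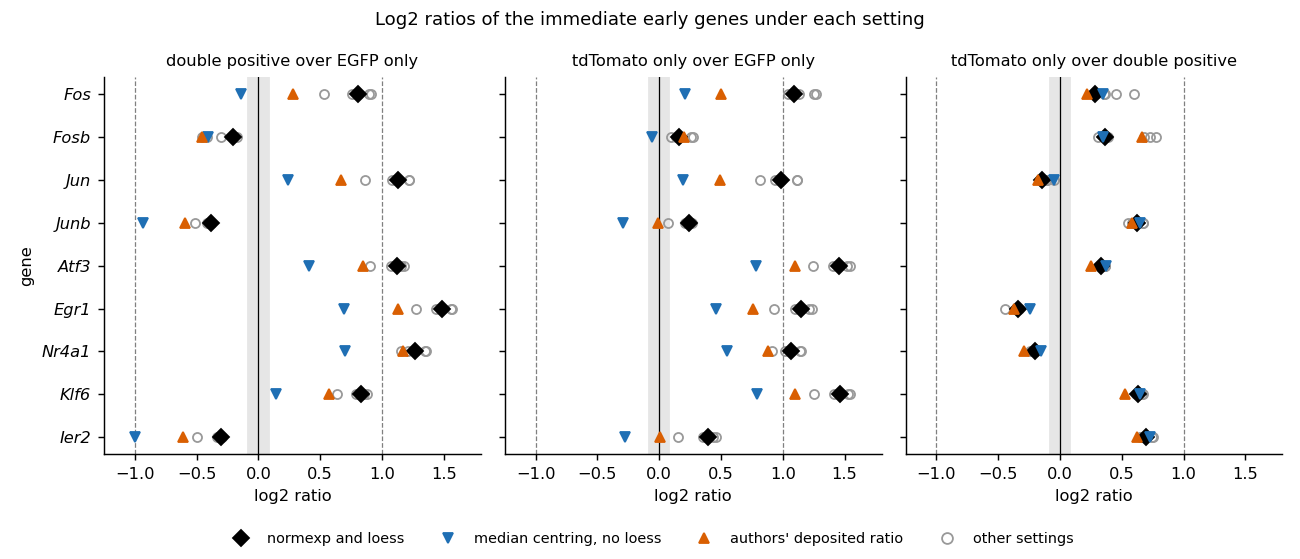
Log2 ratio of each immediate early gene in the 3 comparisons with normexp and loess (diamonds), median centring without loess (blue triangles), the authors' deposited ratios (orange triangles) and the other settings (open circles); dashed lines mark 2-fold and the grey band is 1 SD of the EGFP-only channel between arrays. Median centring lay furthest left for most genes in the first 2 comparisons, and in the third no gene changed sides. The band compares the EGFP-only channel across arrays and does not measure the error of any ratio.

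Markers of several cell types moved with parts of this pattern. All 7 lymphocyte markers measured were lower in tdTomato-only than in double-positive cells, with a median log2 difference of −1.24, so that they had the direction of Egr1, Nr4a1 and Jun and the opposite one to the other 6 members. Stem cell markers (4 of 4, median −0.66) and Paneth cell markers (3 of 3, median −0.33) were lower as well. Goblet cell markers (4 of 4, median 1.10), enterocyte markers (4 of 4, median 0.78) and enteroendocrine markers (5 of 5, median 0.69) were higher in tdTomato-only cells, the direction of Ier2, Klf6 and Junb. The part of any of these cells in the members' differences was not tested.

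Most other immediate early transcription factors were above the EGFP-only level by small amounts after loess. Of 20 listed, 17 were measured, and 15 lay above 0 in double-positive and 14 in tdTomato-only cells, against 48.9% and 48.2% of all genes, with medians of 0.36 and 0.40. With median centring 9 and 12 lay above 0, against 28.7% and 30.0% of all genes. The medians were then 0.01 and 0.07, against −0.21 for all genes in both comparisons. In double-positive cells 2 of 17 were past 2-fold upward (5.10% of all genes), and in tdTomato-only cells 3 upward (6.15%) and 1, Myc (−1.08), downward (1.19%); Myc was named after its value was seen. Klf4, a factor of differentiated and goblet cells, had log2 ratios of 1.90 in double-positive and 3.05 in tdTomato-only cells. Its difference between these populations, 1.15, was the only one past 2-fold in the list, where 0.813% of all genes were past it upward. Btg2, an antiproliferative gene, had 2.22 and 2.19, and the small MAF gene Mafk 0.83 and 1.14. Among close relatives of the members, Fosl1 had 0.09 and 0.10, Fosl2 0.17 and 0.10, Egr2 0.50 and 0.28, Nr4a2 0.34 and 0.17, and Klf2 0.63 and 0.43 in double-positive and tdTomato-only cells. These relatives were named after their values were seen, and Egr3 and Nr4a3 were not above background in any channel.

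Of 32 listed immediate early effectors and feedback genes, such as phosphatases that switch MAP kinases off, 28 were measured. Their medians were 0.24 in double-positive and 0.37 in tdTomato-only cells. With median centring they were −0.03 and 0.05, against −0.21 for all genes in both comparisons. Past 2-fold upward were 5 of 28 in double-positive and 7 of 28 in tdTomato-only cells, where 5.10% and 6.15% of all genes were, and 0 were past it downward. With median centring 3 and 4 were past 2-fold upward, as were 364 of all 11774 and 407 of all 11381 genes. Gadd45g, a growth arrest gene, had log2 ratios of 3.13 and 2.52, and the cell cycle inhibitor gene Cdkn1a 1.40 and 2.19. Dusp6, a phosphatase of ERK kinases, had 1.64 and 1.69, Ppp1r15a, which restores translation after stress, 1.21 and 1.30, and the urokinase receptor gene Plaur 1.06 and 1.22. The ratios of these 5 genes against EGFP-only cells stayed above 0 under every alternative tried. Between the 2 tdTomato-positive populations none of the 28 was 2-fold apart. Of all genes 0.813% were past 2-fold upward and 0.274% downward there, so in a list of this size the count is near that share.

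The AP-1 dimer partners and related bZIP factors had medians of −0.01 in double-positive and 0.16 in tdTomato-only cells over 17 of 22 genes. Median centring put these medians at −0.10 and −0.06, against −0.21 for all genes in both comparisons. Only Ddit3, the stress factor CHOP, was 2-fold higher in double-positive cells, at 1.65, and 1 of 17 is near the 5.10% of all genes. In tdTomato-only cells Ddit3 (2.03), Atf4 (1.12), which drives the integrated stress response, and Creb3l1 (1.11), a membrane-bound factor of secretory cells, were 2-fold higher. These were 3 of 17, against 6.15% of all genes. Median centring put Ddit3 at 1.55, Atf4 at 0.40 and Creb3l1 at 0.66 in tdTomato-only cells, so that only Ddit3 stayed past 2-fold. Of genes of the kinases upstream and of SRF cofactors, 18 of 21 were measured and 0 were 2-fold apart in any of the 3 comparisons, which in a list of this size is near the share of all genes. Their medians were 0.00 and 0.04 in double-positive and tdTomato-only cells. With median centring they were −0.19 and −0.13, against −0.21 for all genes in both comparisons. Above 0 then lay 3 and 6 of the 18, near the 28.7% and 30.0% of all genes. In the main setting, Map2k6 had 0.63 and 0.47, Mapk14 −0.47 and −0.33, and Mapk3 0.35 and 0.58. Median centring turned Mapk3 to −0.25 in double-positive cells.

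Heat shock genes, also known to be induced by tissue dissociation, were not higher than in EGFP-only cells as a list. All 3 populations were sorted, so an induction shared by them would cancel in these ratios, and the part of dissociation was not tested. Over 12 measured genes of 16, medians were −0.10 in double-positive and −0.20 in tdTomato-only cells. With median centring they were −0.57 and −0.65, against −0.21 for all genes in both comparisons. Hmox1, heme oxygenase, had log2 ratios of 2.91 and 2.35, and Hspa5, the chaperone BiP of the endoplasmic reticulum, 1.46 and 1.31. Median centring put Hmox1 at 2.45 and 1.95 and Hspa5 at 0.46 and 0.41, so that Hspa5 was no longer past 2-fold. Hspa8, the constitutive cytosolic chaperone, was 2-fold lower in both, at −1.36 and −1.12. The strongly inducible genes Hspa1a and Hspa1b were not analysed here.

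**Figure D5:**
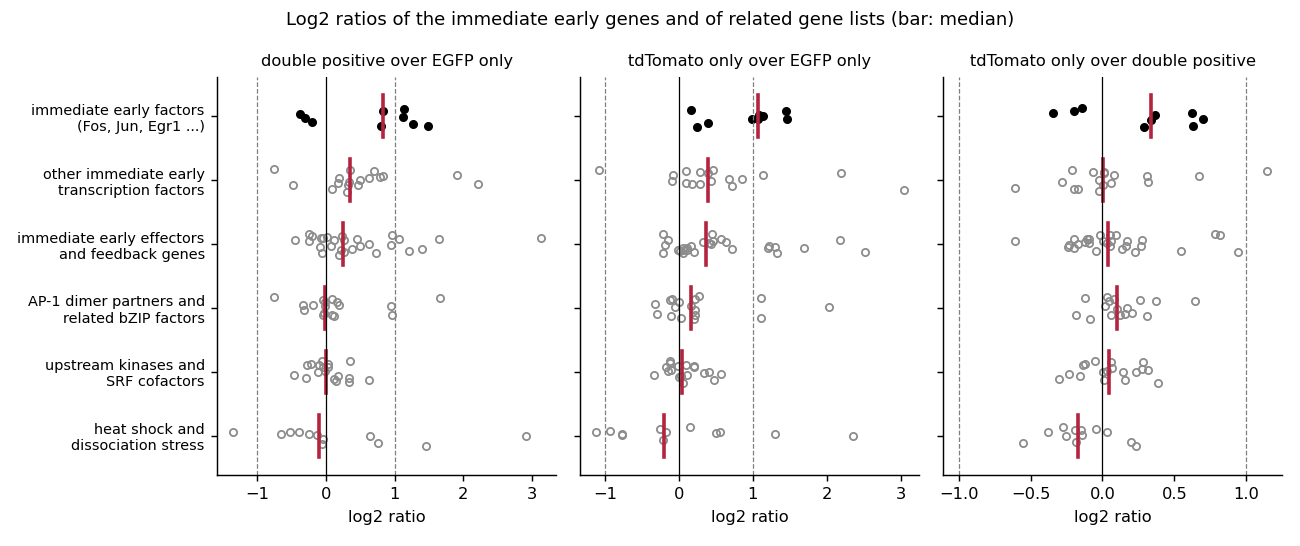
Log2 ratios in the 3 comparisons for the 9 immediate early genes (black) and for the measured genes of 5 related lists (open circles), with each list's median as a bar and dashed lines at 2-fold. In the main setting the immediate early genes had the highest median in each comparison, 0.83, 1.07 and 0.33, and the kinase list lay within 2-fold. With median centring the first 2 medians were 0.14 and 0.21. The lists were not matched for brightness.

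Genes with ratios most like those of 3 members were taken by the distance in the plane of both ratios against EGFP-only cells, over 11311 genes and 2 arrays. Nearest to Jun were Arhgap24 (0.02), Olfr1508 (0.02) and Cd247 (0.03). Nearest to Egr1 were Olfr66 (0.05), Tm9sf3 (0.05) and AI854703 (0.06). Nearest to Klf6 were Abcg5 (0.02), Aspa (0.07) and Trpm4 (0.07). With 2 ratios, many genes lie close to any point by position alone.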

How the data were processed

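Per the labels' protocols, total RNA of sorted cells was amplified, the product was labelled with Cy3 or Cy5, and Toray arrays were used. The authors deposited spot median intensities in both colours, per the file headers, without background subtraction, judging from blank spots well above 0, and, per the labels, a normalized log2 ratio per probe with the EGFP-only population as denominator. Each deposited log2 column has a median of 0, and how it was made is not stated.

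Intensities were corrected with normexp (offset 50, no local background) and normalized by loess within each array, giving no weight to controls and spots with a quality mark (limma 3.58.1, R 4.3.3). A probe counted as above background beyond the mean plus 2 SD of 2736 blank spots in a channel. The columns headed as background medians followed spot brightness and were not used. Between 67.0% and 77.1% of 23473 probes were above background per channel; the number of arrays limits the precision. The platform's annotation named 16631 probes, and the symbols of 3947 of these probes were updated through RefSeq GRCm38.p6. Probes of a gene were averaged. The third comparison is the difference of both arrays' log2 ratios over probes above background in all 4 channels.

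No test was made, with 1 array a comparison; steps were tested on simulated arrays. All 9 measured members were named, with the 3 genes of each other pathway list farthest from 0 in either comparison with EGFP-only cells (up to 6 where a gene was past 2-fold in both), and the 3 genes nearest to Jun, Egr1 and Klf6. Other genes are marked where they were named after their values were seen. Members and lists were chosen with earlier results of these data known. Alternatives were median centring, quantile normalization, other background corrections, an offset of 0, the deposited ratios, other limits for above background, the brightest probe of a gene, and Cy3 against Cy3.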

Additional observations from a re-analysis of the deposited data

How the results depend on the processing

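Of 171 values of single members under alternatives that could change them, 166 kept their direction, and the other 5 arose under median centring (Fos in double-positive cells; Fosb, Junb and Ier2 in tdTomato-only cells) or in the deposited ratios (Junb in tdTomato-only cells). No member that was at least 2-fold apart changed sides. The cause of the shifts below was not tested.

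Median centring put the members' median at 0.14 in double-positive and 0.21 in tdTomato-only cells against EGFP-only cells, with 0 and 0 members 2-fold higher. Quantile normalization gave 0.64 and 0.91, with 2 and 3 members, and the deposited ratios 0.57 and 0.50, with 2 and 2. All genes 2-fold higher after quantile normalization numbered 516 in double-positive and 580 in tdTomato-only cells. In tdTomato-only against double-positive cells the median was 0.25 in the deposited ratios and 0.45 for Cy3 against Cy3.

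For double-positive against EGFP-only cells, all genes at least 2-fold higher and lower numbered 601 and 40. They numbered 364 and 740 under median centring, 1173 and 402 after subtracting the blanks' trimmed mean, 1044 and 223 with an offset of 0, and 1244 and 420 in the deposited ratios; quantile normalization gave 107 lower. For tdTomato-only against EGFP-only cells, 700 and 135 in the main setting became 407 and 850, 1225 and 593, 1132 and 434, and 1209 and 828 in the same order, with 252 lower after quantile normalization. For tdTomato-only against double-positive cells, 92 and 31 became 206 and 163 after that subtraction, 166 and 109 with an offset of 0, 168 and 140 in the deposited ratios, and 253 and 168 for Cy3 against Cy3.

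The 3 alternatives on the limit for above background and the choice of probe cannot move a member, since each has 1 probe above background in all 4 channels. No paired analysis was possible because each population has 1 sample. Signal over background limits Fosb most, as the dimmest member.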
